A study of Mus musculus with 111 samples.

Results

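The livers of mice kept on either of the study's 2 control diets were compared: 4 libraries on the high-fat control diet against 4 on the control diet, 8 of the 17 liver libraries. They were chosen by the tissue and diet in the sample titles. Small RNA was sequenced by OTTR-seq, whose reverse transcriptase adds the sequencing adapters during copying instead of by ligation. The control diet has 18% protein and serves as control for a low-protein diet (10% protein, the rest made up with sucrose). The high-fat control diet has 7.2% of calories from fat and serves as control for a high-fat diet (60% of calories from fat). All mice ate their diet for 6 months with free access to food, in groups of at most 5 per cage, and no gene was altered. Strain, sex and age are not stated, nor is the protein content of the high-fat control diet or the fat content of the control diet. Whether each library is from a different animal is also not stated, so the spread behind each p-value may be technical in part. The comparison asks whether the reference groups of the study's diet tests were alike in liver.

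Transfer RNAs carry amino acids to the ribosome, and each reads codons through its anticodon. Cytosolic tRNAs are transcribed from nuclear genes by RNA polymerase III, while the mitochondrial genome encodes its own set on a heavy-strand and a light-strand transcript. Most snoRNAs are cut from introns of host genes and guide chemical marks onto ribosomal RNA: those of the C/D box kind guide methylation of the ribose, and those of the H/ACA kind guide pseudouridine. In liver, a tissue rich in mitochondria and in secreted protein, these classes make up most of the reads of the 8 libraries.

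The 2 groups differed in sequencing depth. Over the 796 features kept after entries that list the same reads were merged, the control libraries held 77046 to 809048 reads and detected 353 to 472 features, and the high-fat control libraries held 6279 to 22139 reads and detected 166 to 257. Levels are given as RPM, the reads of a feature per 1000000 reads of these 796 features. A single read was worth 1.24 to 12.98 RPM in the control libraries and 45.2 to 159 RPM in the high-fat control libraries. Where a group had no read, 3 reads over the whole group, 57.2 RPM for high-fat control and 2.03 RPM for control, served as the upper limit that a count of 0 allows; such limits and all counting intervals cover counting error only. The sample numbers in the table's column names also differed, at 1 to 4 for control and 44 to 47 for high-fat control, so diet, depth and whatever these numbers stand for cannot be told apart. All column names end in the same suffix, which the labels do not explain, so any selection of reads that it stands for is unknown. Control replicate 1 stood apart from the other 3 control libraries in several RNAs: it held 21260 RPM of Gm26461 (chromosome 9, 88553236 to 88553525, plus strand, within Zfp949), a stand-in for RNA of the cauda epididymis, against 143 to 6142 RPM in the other control libraries and 1355 to 2113 RPM in high-fat control. No cell type marker of liver is among the entries, including the liver microRNA Mir122, so the label could not be checked against one. Of the stand-ins for other tissues, the summed precursors of piRNAs, small RNAs of germ cells, ran from 18.5 to 376 RPM in control and from 0 to 400 RPM in high-fat control. Of the 3 sperm hairpins the sum was 109 to 1895 RPM against 0 to 4004 RPM. Of 4 cauda epididymis stand-ins the sum was 1049 to 25543 RPM against 8311 to 10393 RPM. In high-fat control most of it came from Gm23472, an snRNA entry that is near-identical to the U2 entry described below. The sum is therefore no measure of cauda RNA alone. Gm24245 had 2 reads in control and 0 in high-fat control, and Gm22220 had 10 and 1. The part of such RNA in the results below was not tested.

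Of 205 features tested, 53 were called (25.9%), 12 higher (5.85%) and 41 lower (20.0%) in high-fat control, by edgeR's quasi-likelihood test at a Benjamini-Hochberg adjusted p under 0.05. The split followed RNA class. All 41 features that fell were tRNAs, 39 cytosolic and 2 mitochondrial, and no tRNA rose. Of the 12 that rose, 10 were snoRNAs, 1 was a spliceosomal snRNA and 1 was the Y RNA Rny1. A further measure without a test was whether the 4 and 4 libraries overlapped in RPM: they did not in 66 features (32.2%), 42 lower and 24 higher. The median log2 fold change over all tested features was −0.37. The split depends on the scale: with libraries scaled to total counts 19 rose and 31 fell, with scaling to cytosolic tRNA reads 20 rose and 16 fell, and with scaling to reads other than mitochondrial tRNA 26 rose and 23 fell. Relative to the main scaling these moved the features tested under both by 0.53, 1.16 and 0.97 (median log2). Without control replicate 1, 16 rose and 59 fell. Without control replicate 2, 8 rose and 27 fell.

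**Figure D1:**
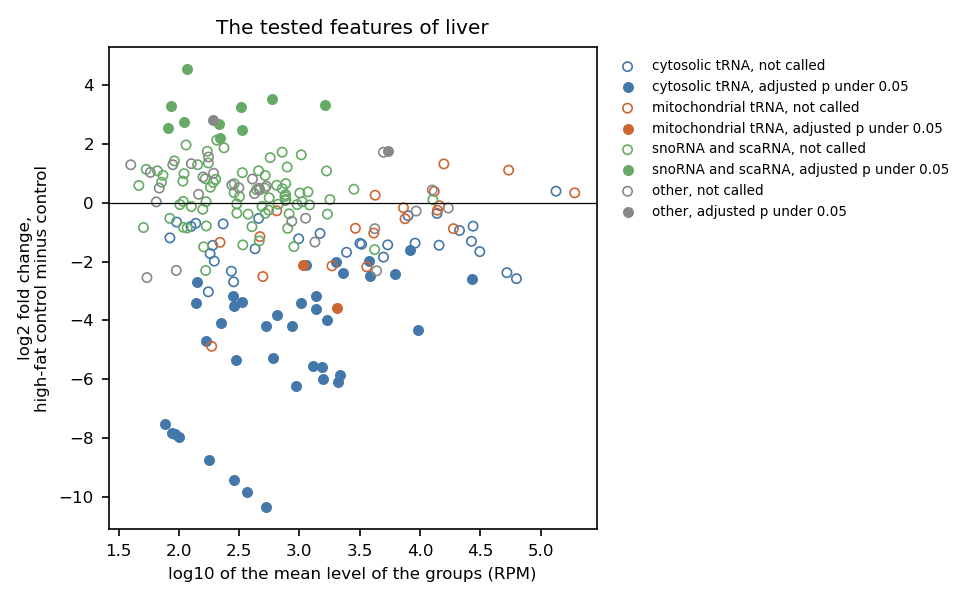
Log2 fold change (high-fat control minus control) against the log10 of the mean RPM of the groups for the 205 tested features of liver. Filled points passed an adjusted p under 0.05. The filled points below 0 are tRNAs, and those above 0 are mostly snoRNAs. The 8 lowest points had 0 reads in high-fat control, so their height depends on the prior count.

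Sequences are shown for the snoRNAs that rose without overlap between the groups and have a single position in the annotation, since these carry the higher calls; cytosolic tRNA sequences were not among the files used here. They were read from the GENCODE M21 transcripts of GRCm38, the assembly of mm10, 5′ to 3′. In the C/D box snoRNAs capitals mark the C box (letters TGATGA, searched in the first 20 bases) and the D box (letters CTGA, in the last 16), searched on the RNA strand only. Each lies on the strand of its host gene.
Gm22571 (chr9:64175873-64175942, plus, in Rpl4): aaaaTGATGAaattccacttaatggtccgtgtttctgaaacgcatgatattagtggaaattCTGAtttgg
Gm22193 (chr8:110842383-110842458, minus, in Sf3b3): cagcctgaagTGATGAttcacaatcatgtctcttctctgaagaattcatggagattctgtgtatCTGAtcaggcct
Gm22680 (chr19:8725341-8725409, plus, in Snhg1): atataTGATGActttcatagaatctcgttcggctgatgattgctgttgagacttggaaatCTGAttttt
Gm22858 (chr17:71641584-71641659, plus, in Wdr43): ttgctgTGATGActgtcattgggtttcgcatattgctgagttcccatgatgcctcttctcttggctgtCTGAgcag
Gm24299 (chr9:15314074-15314144, plus, in Taf1d): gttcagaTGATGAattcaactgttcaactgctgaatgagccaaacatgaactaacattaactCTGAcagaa
Snora28 (chr12:111540941-111541067, plus, in Eif5), the H/ACA snoRNA that rose, is shown with the ACA near its end in capitals.
Snora28: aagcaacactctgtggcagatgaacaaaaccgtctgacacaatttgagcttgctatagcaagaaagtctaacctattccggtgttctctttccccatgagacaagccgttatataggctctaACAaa

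Both boxes were found in 6 of the 9 called snoRNAs that have a sequence and in 51 of the 80 tested ones (63.7%), and all 9 lay within a host gene of the same strand, as did 77 of the 80. The hosts named above include Rpl4, a ribosomal protein, Sf3b3, a splicing factor, Eif5, a translation initiation factor, and Snhg1 and Taf1d, known hosts of several snoRNAs. A match of letters is a description and not a tested site.

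For the mitochondrial tRNAs the results turn on, capitals mark the anticodon. All lie on chromosome M.
mt-tRNA-Trp-TCA-1 (chrM:4950-5016, plus): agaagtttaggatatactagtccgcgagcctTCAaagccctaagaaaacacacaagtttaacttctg
mt-tRNA-Phe-GAA-1 (chrM:1-68, plus): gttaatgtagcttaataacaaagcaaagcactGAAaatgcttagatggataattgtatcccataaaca
mt-tRNA-Leu-TAG-1 (chrM:11671-11741, plus): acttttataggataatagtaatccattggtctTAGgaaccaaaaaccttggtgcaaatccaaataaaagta
mt-tRNA-Ala-TGC-1 (chrM:5018-5086, minus): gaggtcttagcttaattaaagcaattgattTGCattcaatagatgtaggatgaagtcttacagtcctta
mt-tRNA-Met-CAT-1 (chrM:3845-3913, plus): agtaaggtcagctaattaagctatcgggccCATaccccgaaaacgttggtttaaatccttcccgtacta
mt-tRNA-Val-TAC-1 (chrM:1025-1093, plus): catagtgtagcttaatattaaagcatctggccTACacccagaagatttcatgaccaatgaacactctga

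The shares of the tRNA classes did not overlap between the diets, although no class passed the adjusted test. Cytosolic tRNAs made up 50.9%, 70.9%, 61.4% and 69.0% of the reads in control replicates 1 to 4, and 38.1%, 37.1%, 39.9% and 44.7% in high-fat control replicates 1 to 4. Every high-fat control library lay below every control library, with means of 39.9% ± 3.35 and 63.02% ± 9.09 (SD, n = 4 each). Mitochondrial tRNAs showed the opposite, at 27.8%, 21.7%, 28.6% and 27.8% in control and 48.1%, 47.7%, 44.7% and 41.1% in high-fat control. The snRNA share was 0.495% ± 0.361 in control and 1.87% ± 0.313 in high-fat control, and that of 7SK, the RNA that holds back the elongation factor P-TEFb, was 0.0249% ± 0.0187 and 0.0567% ± 0.00476. In these 4 of the 14 classes the groups did not overlap. Most of the snRNA share came from Gm23971 and Gm23472, near-identical entries that may share reads, so this share may count reads more than once. The exact permutation test, two-sided, gave p = 0.0286 for each, the smallest that 4 against 4 can give, and an adjusted p of 0.1 over the 14 classes, so 0 classes passed. The snoRNA and scaRNA share was 4.69% ± 2.90 in control and 7.10% ± 0.652 in high-fat control, and overlapped. On the other diets of the same tissue, cytosolic tRNAs took 21.9% ± 7.16 on low-protein (n = 5) and 19.1% ± 9.86 on high-fat (n = 4), and mitochondrial tRNAs 65.5% ± 9.76 and 41.03% ± 31.7.

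**Figure D2:**
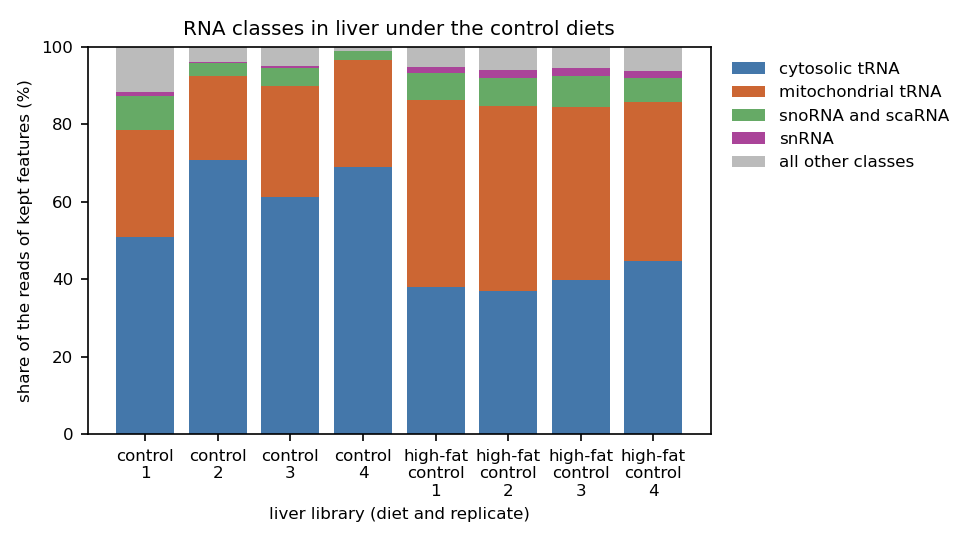
Share of reads (percent of the reads of kept features) taken by RNA classes in each of the 8 liver libraries, as stacked bars. Cytosolic tRNAs took 50.9% to 70.9% in control and 37.1% to 44.7% in high-fat control, and mitochondrial tRNAs 21.7% to 28.6% and 41.1% to 48.1%.

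Cytosolic tRNAs were lower as a class. Of 70 tested, 39 fell, 0 rose and 31 did not pass, with a median log2 fold change of −2.54, or −2.35 with features at 0 reads set to their limit, against −0.37 over all tested features. Of the 39, 33 did not overlap between the groups. All of these are entries of near-identical gene copies, and the labels do not say how reads were divided among copies. Single entries are therefore less certain than their sums, unless reads were counted under several copies. With scaling to total counts 30 of 70 fell (median −1.94), and with scaling to the cytosolic tRNA reads themselves 15 of 51 fell and 1 rose (median −1.04). With the control libraries thinned to 12001 reads each, near the depth of high-fat control, 15 of 43 fell and 0 rose. By amino acid, all 4 proline entries fell, as did 3 of 4 for cysteine, 8 of 10 for arginine, 6 of 8 for leucine, 4 of 7 for serine, 3 of 5 for threonine and both alanine entries. For aspartate (2 entries), glutamate (4), lysine (3) and selenocysteine (1), none passed.

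Proline tRNAs were among those that fell furthest. Summed over all proline entries, the level was 7632, 12336, 16705 and 11968 RPM in control replicates 1 to 4, and 407, 200, 0 and 334 RPM in high-fat control, where it rested on 15 reads in all. Every control library lay far above every high-fat control library. tRNA-Pro-CGG-1 was 2648, 4232, 5658 and 4000 RPM against 136, 66.6, 0 and 111.2 RPM (3, 1, 0 and 1 reads), and fell by 6.09 ± 1.05 on the log2 scale (SE; adjusted p = 0.00029, edgeR quasi-likelihood). tRNA-Pro-TGG-2 fell by 5.85 ± 1.07 (adjusted p = 0.00033) and tRNA-Pro-AGG-1 fell by 5.99 ± 1.09 (adjusted p = 0.00033). The fourth entry, tRNA-Pro-TGG-1, was 454 to 1060 RPM in control and had no read in high-fat control. The 3 anticodons of proline were thus all lower.

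Cysteine tRNAs share 1 anticodon, GCA, and 3 of their 4 tested entries fell. The most abundant, tRNA-Cys-GCA-3, held 13382, 17703, 15351 and 25045 RPM in control and 813, 1799, 796 and 1891 RPM in high-fat control (67 reads), and fell by 4.34 ± 0.91 (log2, SE; adjusted p = 0.0011, edgeR). The groups lay far apart. tRNA-Cys-GCA-2 fell by 3.62 ± 0.89 (adjusted p = 0.0050, edgeR), from 2477 ± 296 to 276 ± 200 RPM.

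In 8 tested features high-fat control had 0 reads in all 4 libraries. All 8 were cytosolic tRNAs, and all were called lower. No tested feature was at 0 in all control libraries. High-fat control held 52420 reads over its 4 libraries and control 1474890, so zeros were far more likely in high-fat control. A feature at 0 there could enter the test only through reads in other groups. These counts are therefore no evidence of a direction. Against the limit of 3 reads over the group, and with the reads of each group pooled, tRNA-Cys-GCA-1 was at least 21.5-fold lower (1815 reads in control), tRNA-Pro-TGG-1 at least 13.5-fold lower and tRNA-Met-CAT-2, an elongator methionine tRNA, at least 8.35-fold lower. The bounds were 6.76-fold for tRNA-Thr-CGT-2, 4.21-fold for tRNA-Arg-ACG-1, 4.08-fold for tRNA-Arg-ACG-3, 3.12-fold for tRNA-Leu-CAG-1 and 2.52-fold for tRNA-Leu-AAG-2, each at least that much lower. The call for tRNA-Leu-CAG-1 was lost in 6 of 15 alternatives (adjusted p up to 0.116, edgeR) and that for tRNA-Leu-AAG-2 in 2 of 12. Other entries had 1 or 2 reads in high-fat control: the pooled ratio of control to high-fat control was 55.2 for tRNA-Arg-CCT-2 (95% counting interval 15.3 to 456), 32.1 for tRNA-Thr-CGT-1 (8.88 to 266), 37.6 for tRNA-Ala-AGC-4 (6.73 to 1485) and 11.9 for tRNA-Ala-TGC-2 (3.29 to 98.8).

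Other entries rested on more reads. tRNA-Gln-CTG-2, a glutamine tRNA with 567 reads in high-fat control, was 34810, 37570, 25004 and 76107 RPM in control and 11563, 10260, 12582 and 8674 RPM in high-fat control, without overlap. It fell by 2.60 ± 0.70 (log2, SE; adjusted p = 0.0082, edgeR); the call was lost with scaling to cytosolic tRNA reads or to reads other than mitochondrial tRNA, and without control replicate 4. tRNA-Arg-TCT-1 fell by 2.43 ± 0.86 (adjusted p = 0.040) and tRNA-Arg-CCT-4 fell by 1.97 ± 0.62 (adjusted p = 0.021, edgeR), and these calls were lost in 12 and 10 of 20 alternatives. tRNA-Asn-GTT-3 was 1038 to 3947 RPM in control and 226, 0, 0 and 0 RPM in high-fat control (log2 −5.56 ± 1.06; adjusted p = 0.00046, edgeR). tRNA-Ser-GCT-3 fell by 3.97 ± 0.99 (adjusted p = 0.0050) and tRNA-Ser-GCT-2 fell by 4.21 ± 1.04 (adjusted p = 0.0050, edgeR). tRNA-Leu-AAG-1, tRNA-Leu-TAA-2, tRNA-Ile-AAT-1, tRNA-His-GTG-2 and tRNA-Thr-TGT-3 also fell, and each call was lost in 3 to 11 of the alternatives run for it. The initiator tRNA-iMet-CAT-1, which starts every cytosolic protein, held 9942, 14976, 5601 and 14286 RPM against 5375, 5996, 4619 and 5672 RPM and overlapped between the groups. It was called lower (−1.61 ± 0.60; adjusted p = 0.049, edgeR), and the call was lost in 12 of 20 alternatives.

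Of the abundant cytosolic tRNAs several did not pass. The glutamate tRNAs tRNA-Glu-CTC-1 and tRNA-Glu-TTC-1 were at 100876 ± 32715 and 82328 ± 30641 RPM in control and at 25333 ± 6163 and 22871 ± 1954 RPM in high-fat control (log2 −2.58 ± 0.98 and −2.38 ± 1.04; adjusted p = 0.056 and 0.091, edgeR), with no overlap between groups in either. They were called lower in 8 and 6 of 20 alternatives, DESeq2 and the fit of only the 8 libraries among them. The lysine tRNAs tRNA-Lys-CTT-3 and tRNA-Lys-CTT-2 had log2 fold changes of −1.31 ± 0.65 and −1.44 ± 0.63, the glycine tRNAs tRNA-Gly-GCC-2 and tRNA-Gly-GCC-4 of −0.79 ± 0.61 and −0.94 ± 0.61, and the valine tRNAs tRNA-Val-CAC-2 and tRNA-Val-AAC-1 of −1.37 ± 0.65 and −1.41 ± 0.70. tRNA-Gln-TTG-1 was at −1.43 ± 0.68. The tRNA of selenocysteine, tRNA-SeC-TCA-1, was at 455 ± 269 and 462 ± 383 RPM.

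Aspartate tRNAs were the exception in direction. tRNA-Asp-GTC-1 held 46284, 113159, 58000 and 137133 RPM in control and 175663, 167755, 175983 and 200956 RPM in high-fat control. Every high-fat control library lay above every control library, yet the fitted log2 fold change was 0.40 ± 0.73 and did not pass (adjusted p = 0.76, edgeR). Over the alternatives it ran from −0.06 to 1.73, and it was called higher in 3 of 20. RPM is scaled to total reads alone, while the fit also applies TMM scaling factors. These were 1.40 to 1.60 in high-fat control and 0.89 to 1.49 in control, so RPM and fitted changes are on different scales. tRNA-Asp-GTC-2 was at −0.36 ± 0.75 (adjusted p = 0.78). The sum of aspartate entries was 101252 ± 50810 RPM in control and 195279 ± 15159 RPM in high-fat control, higher by 1.09 in mean log2(RPM + 1) (exact permutation test, two-sided, p = 0.0286, adjusted p = 0.0393 over 22 amino acids). Within cytosolic tRNA reads alone, aspartate took 10.3% to 23.1% in control and 47.03% to 50.3% in high-fat control (15.5% ± 6.18 and 48.9% ± 1.42).

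Summed by amino acid, 16 of 22 sums passed the same exact permutation test at an adjusted p of 0.0393: aspartate was higher and 15 were lower. Such sums do not depend on how reads were divided among copies, provided each read was counted once. The labels do not state the counting rule. Before merging, 149 entries, some of them tRNA copies, differed from another entry by under 5% of reads, so this condition may not hold. Copies that differed by more were not merged, and a sum may count a read more than once. The glutamate sum was 226260 ± 74318 against 68112 ± 7774 RPM, arginine 27956 ± 9914 against 7176 ± 520 RPM, glutamine 59718 ± 29835 against 18244 ± 2443 RPM and lysine 53356 ± 7327 against 31002 ± 5811 RPM (SD, n = 4 each). Cysteine was at 21693 ± 5492 against 1831 ± 404 RPM, alanine at 1852 ± 809 against 107 ± 39.4 RPM and threonine at 5951 ± 2760 against 1550 ± 654 RPM. The others that passed were asparagine, isoleucine, leucine, methionine, proline, serine, tryptophan and tyrosine. Tryptophan and tyrosine were at 93.1 ± 63.7 and 10.4 ± 4.18 RPM in control with 0 reads in high-fat control; the tyrosine level in control is below the 57.2 RPM that 0 reads allow there, so a difference for tyrosine was not detectable at this depth. Glycine (66621 ± 11383 against 54360 ± 7772 RPM), valine (21475 ± 17311 against 12458 ± 1798 RPM), histidine, phenylalanine, selenocysteine and initiator methionine did not pass. As shares of the cytosolic tRNA reads, 0 of 22 passed the exact permutation test, with adjusted p of 0.0571 or more, and 11 were at an unadjusted p under 0.05. On that scale glutamate took 36.8% ± 13.9 against 17.03% ± 0.859, and glycine 10.7% ± 2.42 against 13.6% ± 1.15.

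**Figure D3:**
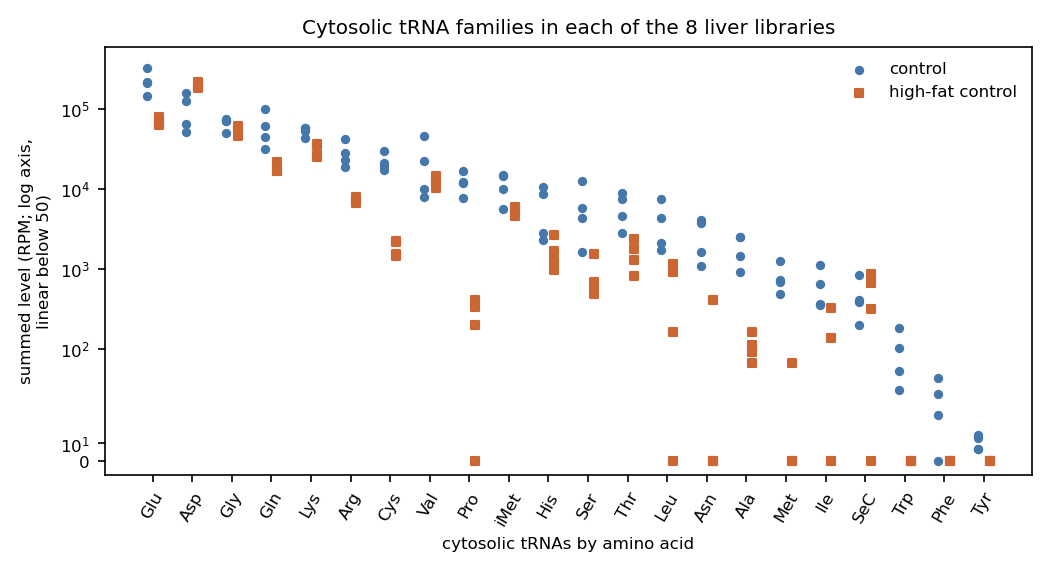
Summed RPM of cytosolic tRNAs by amino acid in each library, 4 control (circles) and 4 high-fat control (squares), on a log axis that is linear below 50 RPM. Squares lie below circles for most amino acids and above them for aspartate (Asp); proline runs from 7632 to 16705 RPM in control and from 0 to 407 RPM in high-fat control.

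Grouped by the kind of amino acid, 22 of 35 tested tRNAs of essential amino acids (Arg, His, Ile, Leu, Lys, Met, Phe, Thr, Trp and Val) fell and 17 of 35 of the others, with medians of −2.43 and −2.60. Of the branched-chain tRNAs 8 of 14 fell, of those with a long variable arm (leucine and serine) 10 of 15, and of those whose anticodon can carry queuosine, a base that the mouse takes up from diet and gut microbes, 2 of 4. No member of these lists rose. Over all 70 tested cytosolic tRNAs 39 fell, and over all 205 tested features 20.0%. The shares of these lists lay around that of all cytosolic tRNAs, so nothing particular to a kind of amino acid was shown.

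Mitochondrial tRNAs did not move as one. Of 21 tested, 2 fell, 0 rose and 19 did not pass, and the log2 fold changes ran from −4.88 to 1.32 with a median of −0.87. This median has the opposite sign to the difference in their share of reads, and it flips with the scale: it was −0.26 with total counts, 0.43 with scaling to cytosolic tRNA reads and 0.18 with scaling to reads other than mitochondrial tRNA. The calls turn with it: 2 rose and 1 fell with total counts, with scaling to cytosolic tRNA reads and with the control libraries thinned, and 4 rose and 2 fell with only the 8 libraries. Both mitochondrial tRNAs that fell are encoded on the heavy strand (2 of 13), and 0 of 8 on the light strand passed. mt-tRNA-Trp-TCA-1, whose anticodon reads the UGA that is a stop codon in the cytosol, was 4478, 1850, 3243 and 4959 RPM in control and 497, 200, 637 and 445 RPM in high-fat control (22 reads). All control libraries lay above all high-fat control libraries, and it fell by 3.59 ± 0.91 (log2, SE; adjusted p = 0.0056, edgeR). mt-tRNA-Phe-GAA-1, the first gene of the mitochondrial genome, is outside the rule for named features and was named after its values were seen. It was 1467, 1377, 749 and 2890 RPM against 813, 733, 159 and 334 RPM, overlapping at 1 control library, and fell by 2.13 ± 0.68 (adjusted p = 0.023, edgeR).

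At the lower end, mt-tRNA-Leu-TAG-1 was at 90.9, 514, 164 and 684 RPM in control and had 1 read in high-fat control (pooled ratio 26.9, 95% counting interval 4.82 to 1065; adjusted p = 0.058, edgeR). The other leucine tRNA, mt-tRNA-Leu-TAA-1, was at −2.51 ± 1.04 (adjusted p = 0.075, edgeR). At the upper end were mt-tRNA-Ala-TGC-1 (1.32 ± 0.76), mt-tRNA-Met-CAT-1 (1.11 ± 0.74) and mt-tRNA-Arg-TCG-1 (0.39 ± 1.03), none of which passed. The first was called higher in 7 of 20 alternatives and the second in 6, total counts and the thinned control libraries among them. mt-tRNA-Ala-TGC-1 held 5828, 6820, 3404 and 10598 RPM in control and 24165, 26382, 28348 and 20685 RPM in high-fat control. Its groups did not overlap in RPM. mt-tRNA-Met-CAT-1, which serves both initiation and elongation in mitochondria, held 43377, 22193, 21687 and 22371 RPM against 86634, 86409, 86638 and 65503 RPM, again without overlap. The most abundant RNA of both groups, mt-tRNA-Val-TAC-1, which also serves as a structural RNA of the mitochondrial ribosome, was at 135688 ± 51524 and 248423 ± 7120 RPM (log2 0.34 ± 0.78; adjusted p = 0.79, edgeR). mt-tRNA-Glu-TTC-1 was at 7397 ± 3436 and 7632 ± 1240 RPM.

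Summed by strand, heavy-strand mitochondrial tRNAs held 256003, 185548, 265282 and 225286 RPM in control and 430733, 424250.5, 394649 and 370774 RPM in high-fat control (exact permutation test, two-sided, p = 0.0286, adjusted p = 0.0571 over the 2 strands). The light-strand sum was 31727 ± 14451 against 49008 ± 6063 RPM (exact p = 0.0857). The heavy strand made up 87.8% ± 5.48 of mitochondrial tRNA reads in control and 89.2% ± 0.842 in high-fat control (exact permutation p = 0.629). Within the mitochondrial tRNA reads mt-tRNA-Met-CAT-1 took 10.4% ± 3.67 against 17.9% ± 1.42, mt-tRNA-Ala-TGC-1 2.56% ± 1.16 against 5.48% ± 0.620, and mt-tRNA-Trp-TCA-1 1.35% ± 0.429 against 0.0990% ± 0.0419, all without overlap.

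**Figure D4:**
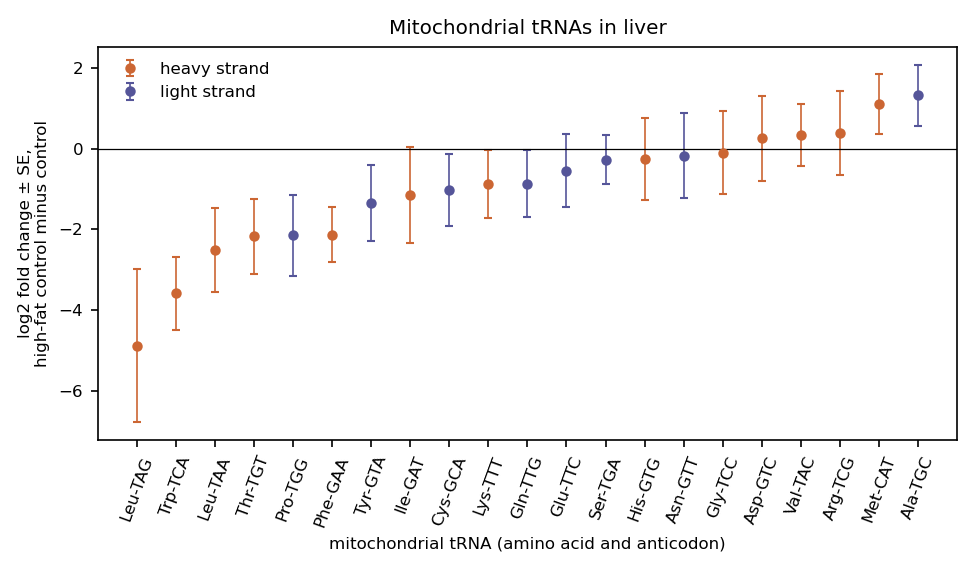
Log2 fold change (high-fat control minus control) with its standard error for the 21 tested mitochondrial tRNAs, ordered by value and coloured by coding strand. Values run from −4.88 (Leu-TAG) to 1.32 (Ala-TGC), and Trp-TCA and Phe-GAA are the 2 that passed.

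Among snoRNAs the changes went the other way. Of 84 tested snoRNAs and scaRNAs, 10 rose, 0 fell and 74 did not pass, with a median log2 fold change of 0.45. Under total counts 14 of 84 rose and with the control libraries thinned 7 of 43, and 0 fell under either. With RLE factors 10 rose and 1 fell, and by DESeq2 14 rose and 4 fell, so the split was not one-way under every setting. These calls rest on few reads. Gm22193 held 64.9, 93.2, 23.4 and 76.6 RPM in control and 903, 1466, 1115 and 1001 RPM in high-fat control (20, 22, 7 and 9 reads), and rose by 3.54 ± 0.69 (log2, SE; adjusted p = 0.00057, edgeR). Every high-fat control library lay far above the highest control library. Gm26457, which has more than 1 record in the annotation and so no single position or sequence here, was 286, 214, 147 and 188 RPM against 2620, 1865, 5733 and 2002 RPM (58, 28, 36 and 18 reads; 3.33 ± 0.61, adjusted p = 0.00033, edgeR). Gm22680 was 38.9, 41.4, 20.1 and 64.3 RPM against 903, 133, 637 and 778 RPM (3.26 ± 0.68, adjusted p = 0.0011, edgeR), with high-fat control replicate 2 closest to the control range.

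Gm22858 was 38.9, 62.1, 26.7 and 32.1 RPM in control and 361, 400, 478 and 334 RPM in high-fat control (20 reads), and rose by 2.70 ± 0.69 (adjusted p = 0.0058, edgeR). Gm24299 was 117, 27.6, 90.3 and 71.7 RPM against 813, 200, 478 and 890 RPM, and rose by 2.49 ± 0.69 (adjusted p = 0.010, edgeR); without high-fat control replicate 1 its adjusted p was 0.052. Gm22571 had 8 reads in control and 3, 2, 2 and 3 reads in high-fat control, or 0 to 6.90 RPM against 133 to 334 RPM (4.55 ± 0.82, adjusted p = 0.00033, edgeR). Snora28 had 28 reads against 4, 2, 1 and 1 (2.53 ± 0.76, adjusted p = 0.017, edgeR). It was fitted in 16 of the 20 alternatives, and the call was lost in 3 of these. It was too sparse to be fitted with only the 8 libraries or with the control libraries thinned. The groups did not overlap for any of these snoRNAs. Gm22193, Gm22680, Gm22858, Gm24299, Gm22571 and Snora28 could pass the filter on low counts through high-fat control but not through control. This limits what their direction shows. The other 3 that rose, Snord90, Gm25632 and Gm25878, overlapped between the groups, rested on 12, 13 and 18 reads in high-fat control, and were named after their values were seen.

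The abundant named snoRNAs did not pass. Of 44 named C/D box snoRNAs 1 rose (Snord90), and of 3 named H/ACA snoRNAs 1 (Snora28). Snord80 was at 10863 ± 9986 RPM in control and 14710 ± 1880 RPM in high-fat control, and Snord104 (chromosome 11, 106500993 to 106501062) at 5743 ± 2586 and 2672 ± 624 RPM (log2 −1.59 ± 0.75; adjusted p = 0.12, edgeR). The U3 snoRNAs, which take part in cutting the precursor of ribosomal RNA, were at 1.87 ± 0.73 (Rnu3b1; adjusted p = 0.058, edgeR, called higher in 10 of 19 alternatives) and 0.82 ± 0.97 (Rnu3a). Scarna17, a guide RNA of the Cajal body, was at 1.75 ± 0.92, and the H/ACA snoRNA Snora7a at −0.86 ± 1.14.

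Of 7 snRNAs 1 rose. Gm23971 (chromosome 11, 101645740 to 101645930, minus strand), whose sequence is that of U2, the snRNA that pairs with the branch point of introns, was 4322, 1501, 1311 and 954 RPM in control and 6911, 9660, 10511 and 8452 RPM in high-fat control, without overlap (1.77 ± 0.64, adjusted p = 0.044, edgeR). The call was lost in 8 of 20 alternatives. Gm23472 (chromosome 1, 72236946 to 72237136, plus strand), a near-identical copy with which reads may be shared, was 4231, 1308, 1217 and 905 RPM against 6956, 8794, 8759 and 7673 RPM (1.72 ± 0.65, adjusted p = 0.052, edgeR), and was called higher in 12 of 20 alternatives. The U1 entry Rnu1a1, of the particle that finds 5′ splice sites, was at 119 ± 91.3 RPM in control and 269 ± 229 RPM in high-fat control. Both snRNA entries were highest in control replicate 1 among the control libraries.

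Of 7 tested products of RNA polymerase III other than tRNAs, 1 rose and 0 fell, with a median of 0.81. Rny1 (chromosome 6, 47788069 to 47788180, minus strand), a Y RNA bound by the Ro60 protein, was 143, 10.4, 26.7 and 8.65 RPM in control and 271, 533, 318 and 222 RPM in high-fat control (18 reads), and rose by 2.81 ± 0.81 (adjusted p = 0.014, edgeR). Without control replicate 2 its adjusted p was 0.052. Rny1 too could pass the filter on low counts through high-fat control but not through control. Rn7s1 (chromosome 12, 69159295 to 69159594), which belongs to the signal recognition particle, was at 16406 ± 17063 and 17930 ± 2223 RPM, and the 5S ribosomal RNA feature Gm25018 at 8872 ± 5228 and 9722 ± 2177 RPM. None of 9 hairpins annotated as miRNA genes passed; Gm47295, which overlaps Rn7s1, was at 9193 ± 7395 and 16089 ± 1842 RPM, and Gm47301 at 1189 ± 808 and 1064 ± 529 RPM. No precursor of a piRNA was abundant enough to be tested.

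Set beside the other 2 diets of liver, calls were most numerous where the control group was one side of the contrast. In the same fit, high-fat control minus low-protein gave 0 of 205 calls (0.0%) with 12 features at an unadjusted p under 0.05. Low-protein minus control gave 73 calls (35.6%), 20 higher (9.76%) and 53 lower (25.9%). High-fat minus control gave 74 calls (36.1%), 41 higher (20.0%) and 33 lower (16.1%), and high-fat minus high-fat control gave 6 (2.93%), 5 higher (2.44%) and 1 lower (0.488%). These comparisons share groups, so they are not independent. A count of 0 does not show that high-fat control and low-protein are alike, and no other tool was run on it. tRNA-Pro-CGG-1 was at 4134 ± 1233 RPM in control, 78.3 ± 59.5 in high-fat control, 68.6 in low-protein (mean; range 0 to 146) and 84.3 in high-fat (range 0 to 190). tRNA-Cys-GCA-3 was at 17870, 1325, 922 and 607 RPM in the same order, and tRNA-Gln-CTG-2 at 43373, 10770, 6038 and 5295 RPM. Among snoRNAs, Gm22193 was at 64.5, 1121, 661 and 64.2 RPM, and Gm26457 at 209, 3055, 1147 and 873 RPM. tRNA-Asp-GTC-1 was highest in high-fat control, at 88644, 180089, 77451 and 40135 RPM. The column numbers of the low-protein and high-fat liver libraries run from 48 to 52 and from 53 to 56, after those of high-fat control. The numbers of high-fat control, low-protein and high-fat recur in 4 cauda sperm, 5 testis and 4 testis columns, in that order. Those of control recur in 0 other columns. Whether the numbers reflect a shared run is not stated, and their part in these results was not tested.

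**Figure D5:**
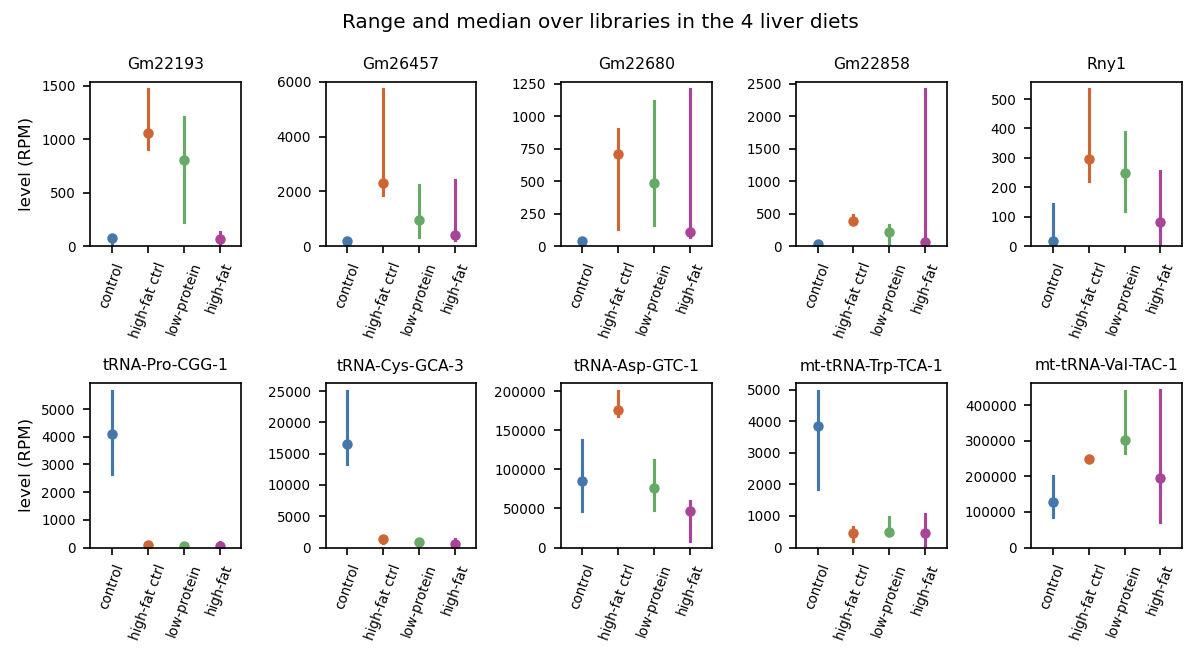
RPM of 10 features in the 4 liver diets, as the range (line) and median (point) over 4 control, 4 high-fat control, 5 low-protein and 4 high-fat libraries. tRNA-Pro-CGG-1 and tRNA-Cys-GCA-3 are high in control alone, and tRNA-Asp-GTC-1 is highest in high-fat control. One high-fat library held 827 reads, so a single read there is worth 1209 RPM.

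The same pair of diets was compared in heart (5 control and 5 high-fat control libraries), and the difference between the tissues was tested. In heart too the column names differed: those of control carry a sample number and those of high-fat control carry none. Diet and whatever lies behind this cannot be told apart there, and heart read depths are not given here. Of 281 features, 83 had a liver effect that differed from the heart effect (29.5%), 13 higher (4.63%) and 70 lower (24.9%) in liver. With total counts 25 were higher and 37 lower. Of the 70 cytosolic tRNAs tested in liver, 32 had a lower effect in liver than in heart and 0 a higher one. For tRNA-Cys-GCA-3 the effect was −4.34 in liver and −0.56 ± 0.49 in heart, a difference of −4.31 ± 0.94 (log2, SE; adjusted p = 0.00037, edgeR). For tRNA-Pro-CGG-1 it was −6.09 in liver and −2.08 ± 0.49 in heart, a difference of −4.45 ± 1.05 (adjusted p = 0.00088, edgeR). Each tissue's own effect comes from its own fit, so the differences need not match the subtraction exactly. For tRNA-Gln-CTG-2 the effects were −2.60 and −2.06 ± 0.52 and did not differ beyond their error (−1.14 ± 0.89, adjusted p = 0.33), and for tRNA-iMet-CAT-1 they were −1.61 and −2.24 ± 0.53 (0.15 ± 0.82, adjusted p = 0.89, edgeR).

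Of the 84 snoRNAs and scaRNAs, 11 had a higher and 13 a lower effect in liver than in heart. Among those that rose in liver, 3 fell in heart. Gm22680 rose by 3.26 in liver and fell by 4.38 ± 0.68 in heart, a difference of 7.10 ± 1.011 (log2, SE; adjusted p = 2.4e-07, edgeR), and Gm22193 rose by 3.54 in liver and fell by 3.07 ± 0.54 in heart (difference 6.07 ± 0.94, adjusted p = 1.5e-06). Gm22858 rose by 2.70 in liver and fell by 1.39 ± 0.55 in heart (difference 3.59 ± 0.93, adjusted p = 0.0022, edgeR). Rny1 rose in both, by 2.81 and by 1.68 ± 0.45 (difference 0.91 ± 0.93, adjusted p = 0.47, edgeR). Against the mean effect of the other 5 sample types (heart, testis, caput, cauda and cauda sperm), 68 of 459 features differed (14.8%), 8 higher (1.74%) and 60 lower (13.1%) in liver, among them 42 of the 69 cytosolic tRNAs tested in both, all lower. With total counts the 68 became 41 and with RLE factors 42.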

How the data were processed

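The authors deposited 1 table of raw read counts per small RNA entry (1268 entries), not normalized. The submitters' processing notes name cutadapt, DESeq2 and the mm10 build; for the aligner, counting rule and strand setting: not given in the sources used here. Columns were matched to samples by title, and none was left unmatched. Entries that repeat the reads of another under a second name (22 mitochondrial tRNA names, and 149 entries differing by under 5% of reads) and 55 rows of 5S ribosomal RNA copies were reduced to 1 each, and 246 entries under 50 reads in all libraries were dropped, which left 796 features with 51.04% of the summed counts. The 155 antisense entries held 68 reads in all libraries.

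All 17 liver libraries were fitted together with 1 term per diet in edgeR 4.0.16 (R 4.3.3; TMM factors, filterByExpr, robust quasi-likelihood F test), and the contrast was high-fat control minus control, with Benjamini-Hochberg adjustment and a threshold of 0.05. The SE is the log2 fold change divided by the square root of F. Shares and sums were compared by exact two-sided permutation tests (scipy 1.17.1; sums as log2(RPM + 1)). Positions, sequences and host genes are from GENCODE M21 (GRCm38). Chi-square per degree of freedom between replicates was 2.22 to 3.87 in high-fat control and 67.6 to 490 in control. This measure grows with read depth, so the groups cannot be compared by it. It also cannot tell whether libraries share an animal. All libraries were treated as separate. Tested on simulated data for this contrast (210 features), 2 of 23 features changed by a log2 of 2 were called, 12 of 33 changed by 3, and 0 of 154 unchanged ones. Alternatives included DESeq2 1.42.0, other scaling factors, no filter, fewer libraries, thinned control libraries and each library left out.

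Named features were the called ones with the largest changes each way (12 at most) whose groups did not overlap, the 3 most abundant of each group, the 2 most abundant of each list, and the 3 highest and 3 lowest mitochondrial tRNAs. The libraries compared, the lists and the tests were chosen with earlier results of these data known.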

Additional observations from a re-analysis of the deposited data

Results flagged for a closer look

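In 23 of 212 groups of 4 values checked, 1 library lay apart from the other 3 by Dixon's criterion for 4 samples; chance alone gives about 1 in 20, and a group with 3 libraries at 0 meets it with a single read. In control, replicate 1 was the high library in 5 of them: Rny1 at 143 RPM (others 8.65 to 26.7), the snRNA entries Gm23971 at 4322 RPM (954 to 1501) and Gm23472 at 4231 RPM (905 to 1308), the U3 entry Rnu3a at 312 RPM (17.3 to 66.9) and mt-tRNA-Met-CAT-1 at 43377 RPM (21687 to 22371). In replicate 2 the mitochondrial tRNA share was 21.7% (27.8% to 28.6%), tRNA-Cys-GCA-2 was at 2036 RPM (2583 to 2671) and tRNA-Leu-TAA-2 at 1450 RPM (180 to 278). In replicate 3 the glycine sum was 49664 RPM (71023 to 74125) and tRNA-Gly-GCC-2 was at 23299 RPM (31626 to 33149). In replicate 4 the other rRNA share was 0.173% (0.794% to 0.905%) and tRNA-Cys-GCA-1 was at 1476 RPM (903 to 970).

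In high-fat control, replicate 4 stood apart in the glutamate sum at 79738 RPM (63545 to 65023), in tRNA-Glu-CTC-1 at 34475 RPM (21501 to 23571) and in mt-tRNA-Met-CAT-1 at 65503 RPM (86409 to 86638), and replicate 3 in tRNA-Asp-GTC-2 at 11785 RPM (16080 to 16570). The remaining 7 had reads in 1 library only: the asparagine sum (407 RPM, replicate 1), tRNA-Asn-GTT-3 (226 RPM, replicate 1), tRNA-Arg-CCT-2 and tRNA-Ala-TGC-2 (90.3 RPM each, replicate 1), mt-tRNA-Leu-TAG-1 (45.2 RPM, replicate 1), the methionine sum (66.6 RPM, replicate 2) and tRNA-Ala-AGC-4 (111.2 RPM, replicate 4).

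For 25 of the 39 named features that were called in liver, the difference between the liver and the heart effect passed the test at an adjusted p under 0.05 (edgeR). These 39 were chosen for large changes in liver, so the count is not comparable with the 83 of 281 (29.5%) over all features. As liver minus heart on the log2 scale, the snoRNAs stood at 3.88 (Gm22571), 6.07 (Gm22193), 3.79 (Gm26457), 7.10 (Gm22680), 3.59 (Gm22858) and 2.72 (Gm24299). The proline tRNAs stood at −4.45 (tRNA-Pro-CGG-1), −4.26 (tRNA-Pro-AGG-1) and −4.10 (tRNA-Pro-TGG-2), and the cysteine tRNAs at −4.31 (tRNA-Cys-GCA-3) and −4.60 (tRNA-Cys-GCA-2). The serine tRNAs stood at −3.90 (tRNA-Ser-GCT-3) and −4.28 (tRNA-Ser-GCT-2), the arginine tRNAs at −5.76 (tRNA-Arg-CCT-2) and −3.26 (tRNA-Arg-TCT-1), and the threonine tRNAs at −2.70 (tRNA-Thr-TGT-3) and −3.45 (tRNA-Thr-CGT-1). The others were tRNA-Leu-AAG-1 (−4.18), tRNA-Ala-TGC-2 (−3.58), tRNA-Asn-GTT-3 (−2.81) and mt-tRNA-Trp-TCA-1 (−3.31). For 4 features with 0 reads in high-fat control of liver the fitted value depends on the prior count and is no bound: tRNA-Cys-GCA-1 (−11.21), tRNA-Pro-TGG-1 (−9.46), tRNA-Met-CAT-2 (−7.58) and tRNA-Leu-CAG-1 (−7.91).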

How the results depend on the processing

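Of 53 calls (12 higher, 41 lower), the number higher was 19 with total counts, 20 with scaling to cytosolic tRNA reads, 26 with scaling to reads other than mitochondrial tRNA, 21 with only the 8 libraries, 22 with all entries kept and 23 with the title number as a replicate block. The number lower was 16 with scaling to cytosolic tRNA reads, 23 with scaling to reads other than mitochondrial tRNA, 69 without a filter (82 calls in all) and 16 with the control libraries thinned (27 in all). Leaving out 1 library gave 35 to 75 calls, 8 to 16 higher and 27 to 59 lower, with the fewest without control replicate 2 and the most without control replicate 1. With the number in the library name as a replicate block 18 were higher and 61 lower. Deviations of same-numbered libraries correlated at −0.03 to 0.16, and of others at −0.14 to 0.14, so the numbers were not shown to pair the libraries. The difference from the other 5 sample types fell from 68 features to 41 with total counts and 42 with RLE factors, and the amino acid sums that passed from 16 to 0 as shares of cytosolic tRNA reads; the cause of these differences was not tested. Of 1343 values of named features under 20 alternatives, 1164 were the same as to the call, 95 lost the call and 84 gained one. None of the 39 named features that were called changed sign under any alternative. Several features that were not called did change sign, such as tRNA-Asp-GTC-2, which ran from −0.81 to 0.99. Of the 39 called, 23 kept the call wherever they were fitted. Permutation tests of 3 against 4 libraries cannot go below 0.0571, so leaving out a library gives no count there. Depth limits every value of high-fat control, where 1 read is worth 45.2 RPM or more.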
